A study of Mus musculus with 2 samples.

Results

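Bone morphogenetic protein (BMP) signalling was followed through 10 genes in ovaries of mouse pups at postnatal day 3 (PD3), when primordial follicles form. The genes were the ligands Bmp2, Bmp4 and Bmp7, the type I receptors Bmpr1a and Bmpr1b, the type II receptor Bmpr2, the receptor-regulated Smads Smad1 and Smad5, and the inhibitory Smads Smad6 and Smad7. They were chosen by symbol from the 21018 genes that both deposited count tables hold, and all 10 were present. Single ovarian cells of C57BL mice were profiled with the 10x Genomics 3′ assay in 2 libraries, 1 per treatment group. In the group DEHP_MLT, pregnant mice received DEHP, a phthalate plasticizer, by gavage each day at 9:00 from E16.5, in late gestation, until PD3, and melatonin (MLT) at about 17:00. In the group MLT, DMSO took the place of DEHP and melatonin was given in the same way, so both groups received melatonin. The series asked how melatonin acts on ovaries of offspring whose mothers were exposed to DEHP. The sources used here do not give how many pups or ovaries entered a library.

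The titles and the names of the deposited tables contradict each other as to which library is which. The titles were followed, and every direction below turns around if the table names are the right ones. With 1 library per group there is no replicate spread, so no difference between the groups could be tested. Levels are UMIs (unique molecular identifiers, each a captured RNA molecule) of a gene per 10,000 UMIs summed over the cells of a class, with exact Poisson 95% intervals. Such intervals hold counting error alone. Each ratio is the log2 of the level labelled DEHP_MLT over the level labelled MLT after adding 0.01 to both, and a negative ratio means a lower level labelled DEHP_MLT.

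As background, a BMP ligand joins type I and type II receptor kinases on the cell surface. The type II kinase activates the type I kinase, which phosphorylates Smad1 and Smad5. These enter the nucleus with Smad4 and turn on targets such as the Id genes, which encode inhibitors of basic helix-loop-helix factors. Smad6 and Smad7 block the receptors and are themselves induced by the pathway. In the mouse ovary BMP ligands from somatic cells act on germ cells and granulosa cells around the time when follicles form.

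There were 80657690 UMIs in the 5277 barcodes labelled MLT and 117355739 UMIs in the 4819 barcodes labelled DEHP_MLT, and 4 barcode sequences occurred in both. Cells were placed in a class by the summed level of its markers, which gave 267 and 725 germ cells, 591 and 280 granulosa cells, 2718 and 2091 stroma cells, 152 and 97 endothelial cells, and 113 and 92 perivascular cells labelled MLT and DEHP_MLT. Check markers that the gates did not use had their highest summed level in the class they stand for in all 5 classes. Amhr2 and Wnt6, markers of granulosa cells, were each highest in cells gated as surface epithelium. The libraries also differed in ways that touch every class. Cells with MHC class II genes made up 27.3% to 49.9% of the cells of these classes labelled MLT and 0 to 1.09% labelled DEHP_MLT. The haemoglobin gene Hbb-bs stood at 1.84 to 25.6 UMIs per 10,000 in these classes labelled MLT and at 31.5 to 60.2 labelled DEHP_MLT.

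Promoter windows from RefSeq (build GRCm38.p6), running from 250 bases before to 50 bases after the annotated start, were found for 7 of the 10 genes. Those not matched were Bmp2, Bmp7 and Smad7. A pair of palindromes that Smads are known to bind, GTCTAGAC and GGCGCC, was searched. Each reads the same on both strands, and no window of the 7 genes held both. GTCTAGAC occurred in 70 of all 32851 windows (0.213%), and among these genes only in that of Smad6, where it begins 4 bases before the start. GGCGCC occurred in 3898 windows (11.9%). Among these genes it was in the windows of Bmpr1a and Bmpr2 and in 2 of the 3 windows of Smad5, and it was also in that of the target Id2. The windows of Smad6 (chr9:64022010-64022309, minus strand), Bmpr2 (chr1:59764029-59764328, plus strand) and Id2 (chr12:25096043-25096342, minus strand) are shown because Smad6 is a feedback inhibitor, Bmpr2 was lower labelled DEHP_MLT in every class, and Id2 stands for the targets. Capitals mark the palindrome. A match is a description of the letters and not evidence of binding.
Smad6: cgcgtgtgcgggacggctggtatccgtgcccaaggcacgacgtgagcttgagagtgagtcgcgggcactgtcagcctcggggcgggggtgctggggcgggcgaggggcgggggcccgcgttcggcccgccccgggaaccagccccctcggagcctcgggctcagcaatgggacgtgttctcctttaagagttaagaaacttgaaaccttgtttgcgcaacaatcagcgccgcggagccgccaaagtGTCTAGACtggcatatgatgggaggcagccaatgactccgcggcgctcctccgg
Bmpr2: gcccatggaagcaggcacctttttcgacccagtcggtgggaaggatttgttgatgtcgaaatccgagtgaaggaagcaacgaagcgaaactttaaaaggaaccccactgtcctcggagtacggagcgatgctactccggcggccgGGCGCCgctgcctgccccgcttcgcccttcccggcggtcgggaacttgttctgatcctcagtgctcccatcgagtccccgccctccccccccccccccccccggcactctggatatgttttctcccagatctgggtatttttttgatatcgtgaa
Id2: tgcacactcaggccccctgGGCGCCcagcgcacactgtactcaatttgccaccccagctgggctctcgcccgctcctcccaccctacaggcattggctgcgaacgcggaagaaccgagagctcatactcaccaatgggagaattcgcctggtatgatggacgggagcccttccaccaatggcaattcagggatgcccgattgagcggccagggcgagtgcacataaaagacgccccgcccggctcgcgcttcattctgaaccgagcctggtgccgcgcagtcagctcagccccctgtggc

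Across the 10 genes and 5 classes, the receptors and Smads were spread over many classes while Bmp4 was concentrated in granulosa cells. A gene was compared in a class if its level over both libraries was at least 0.05, which 42 of the 50 pairs of gene and class passed. A pair was counted as apart if the levels differed at least 1.5-fold and their intervals did not overlap. By this rule 0 pairs were higher and 6 were lower labelled DEHP_MLT. The 6 were Bmpr1b in germ cells, Smad7 in granulosa cells, Bmp2 and Bmpr2 in stroma, Bmp2 in endothelial cells and Bmpr1a in perivascular cells. Of all genes compared, the share lower by the same rule was 3.63% in germ cells, 8.22% in granulosa cells, 7.9% in stroma, 8.32% in endothelial cells and 6.25% in perivascular cells. The share higher was 1.83%, 0.881%, 0.984%, 1.39% and 2.34% in the same order. Over the 42 compared pairs, 14.3% were lower, so the count rests on few pairs. The filter stood close to some pairs. Bmp4 in germ cells (0.0374 over both libraries), Bmp7 in endothelial cells (0.0384) and Smad6 in granulosa cells (0.0475) lay just below it, and Bmp7 in perivascular cells (0.0515) and Bmp2 in stroma (0.0530) just above.

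The whole of each class was shifted. The median ratio of all genes compared was -0.08 in germ cells, -0.13 in granulosa cells, -0.12 in stroma, -0.13 in endothelial cells and -0.12 in perivascular cells. The median of the compared members was -0.19 in germ cells, -0.11 in granulosa cells, -0.18 in stroma, -0.20 in endothelial cells and -0.41 in perivascular cells. With ratios centred on the class median, 2 pairs were lower, Bmp2 in endothelial cells (-0.91) and Bmpr1b in germ cells (-0.75), and 0 were higher. With mitochondrial, ribosomal protein, haemoglobin, S100a8 and S100a9 UMIs taken out of the denominator, 2 were lower and 1 was higher, which was Bmp7 in granulosa cells (0.64).

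**Figure D1:**
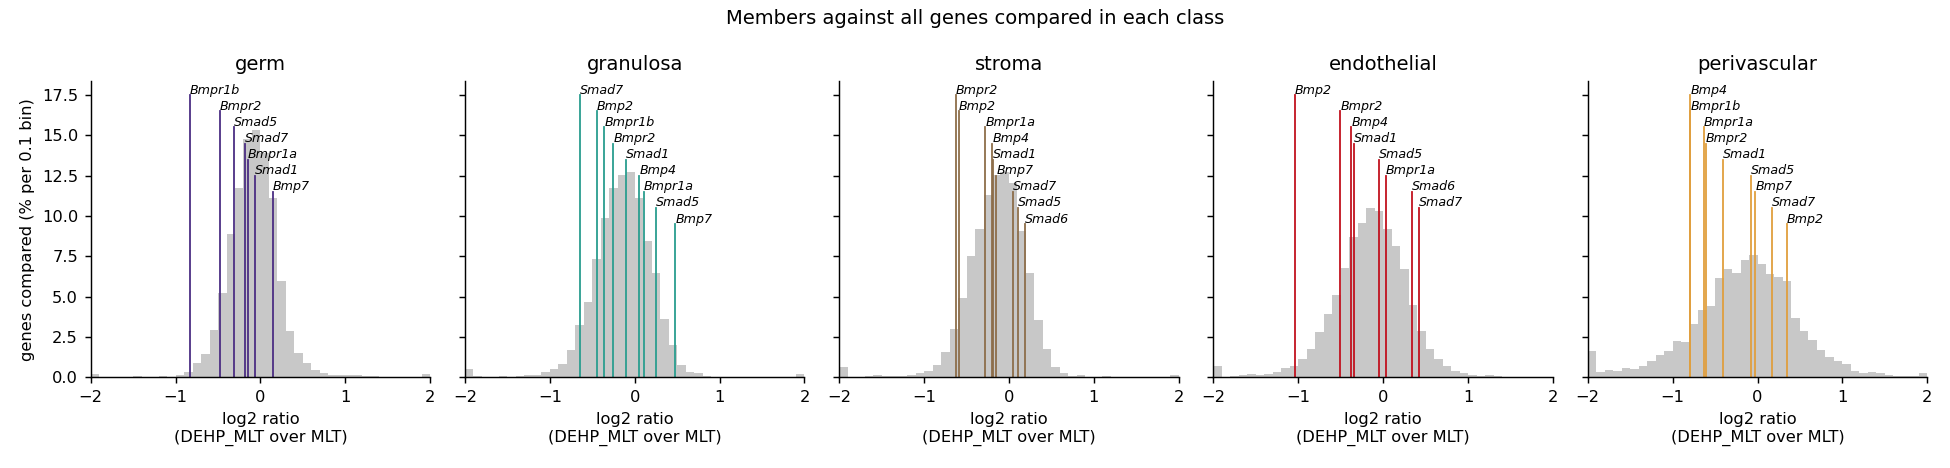
Distribution of the log2 ratio (library labelled DEHP_MLT over library labelled MLT) of all genes compared in each class, as the percentage of genes per bin of 0.1 (grey; genes beyond the axis are in the end bins), with the compared members as coloured lines whose heights carry no value. Bmpr1b in germ cells (-0.83) and Bmp2 in endothelial cells (-1.04) lie at the left edge of their distributions, and most members lie inside them.

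Among the ligands, Bmp4 was concentrated in granulosa cells. In granulosa cells it stood at 0.912 (interval 0.862 to 0.963) labelled MLT and 0.946 (0.881 to 1.01) labelled DEHP_MLT, a ratio of 0.05 with overlapping intervals. The ratio ran from -0.06 to 0.22 over the alternative settings, with 0.22 at equal weight per cell, 0.21 with mitochondrial, ribosomal protein, haemoglobin, S100a8 and S100a9 UMIs out of the denominator, and 0.18 centred on the class median. Endothelial cells came next with 0.199 and 0.151. The granulosa level was 4.58 times the endothelial one labelled MLT and 6.25 times labelled DEHP_MLT, with intervals far apart in both. Stroma held 0.0616 and 0.0525, perivascular cells 0.0779 and 0.0407, and germ cells 0.0430 and 0.0363. Neighbours among these last classes overlapped in their intervals. In germ cells Bmp4 was at 4.71% and 3.83% of its granulosa level. The granulosa markers Foxl2 (5.23% and 4.86%) and Kitl (4.80% and 5.31%) were at similar percentages there. Amhr2 (8.03% and 11.8%) and Wnt6 (7.33% and 12.1%) were at higher ones. None of the 4 was below Bmp4, so this comparison cannot tell the germ cell level of Bmp4 from background. In stroma Bmp4 was at 6.75% and 5.55%, where the 4 markers ran from 8.21% to 33.7% and from 5.44% to 26.4%. In perivascular cells it was at 8.55% and 4.31%, where they ran from 6.88% to 16.7% and from 4.79% to 8.30%. Those levels cannot be told from background in this way either. After thinning to 2000 UMIs per cell, 12.0% of granulosa cells labelled MLT and 16.4% labelled DEHP_MLT had a Bmp4 UMI (51.4% and 63.9% unthinned). Among erythroid cells it was 0 of 35 and 0 of 575, which allows up to 8.57% and 0.522%. Those cells had median totals of 12143 and 9537 UMIs, against 15382 and 19204.5 in granulosa cells. Haemoglobin RNA takes up much of the erythroid totals, with Hbb-bs at levels of 3651 and 2450 and Hba-a1 at 1667 and 1259. Thinning to an equal total therefore leaves fewer other UMIs in erythroid cells, and their shares may understate background.

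Bmp2 had its highest levels of the 5 classes in endothelial and granulosa cells, and it was lower labelled DEHP_MLT in both. Endothelial cells held 0.221 (0.175 to 0.275; 80 UMIs) labelled MLT and 0.102 (0.0673 to 0.149; 27 UMIs) labelled DEHP_MLT. The ratio of -1.04 was the lowest of the 42 and its intervals were apart. Without the cells that carried MHC class II genes it was -0.76 and the intervals overlapped. In granulosa cells the levels were 0.218 and 0.157 (-0.45), with intervals apart but a difference under 1.5-fold. Stroma held 0.0653 and 0.0401 (-0.59), a difference at the edge of 1.5-fold that passed in 4 of 13 alternative settings. Perivascular cells gave 0.0779 and 0.102 from 9 and 10 UMIs, and their intervals overlapped. Germ cells were lowest with 0.0183 and 0.0163, which is 8.38% and 10.4% of the granulosa level. The 4 granulosa markers ran from 4.80% to 8.03% there labelled MLT and from 4.86% to 12.1% labelled DEHP_MLT. Endothelial and granulosa intervals overlapped in both libraries, so neither class stood above the other. Labelled DEHP_MLT the perivascular interval (0.0488 to 0.187) overlapped those of both, so these classes were set apart from perivascular cells only labelled MLT.

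Bmp7 had no clear home among the 5 classes. Labelled MLT it ran from 0.0470 in endothelial cells to 0.0893 in stroma, and labelled DEHP_MLT from 0.0265 in endothelial cells to 0.111 in granulosa cells. All neighbours in the order overlapped in their intervals in both libraries. Germ cells held 0.0623 and 0.0698, which was 81.5% and 63.2% of the granulosa level. Bmp7 was higher in the surface gate (0.233 and 0.271) than in granulosa cells. A comparison with the granulosa markers therefore cannot tell germ cell RNA of Bmp7 from background. In granulosa cells the levels of 0.0765 and 0.111 gave a ratio of 0.48 with overlapping intervals. No compared class was apart between the libraries.

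**Figure D2:**
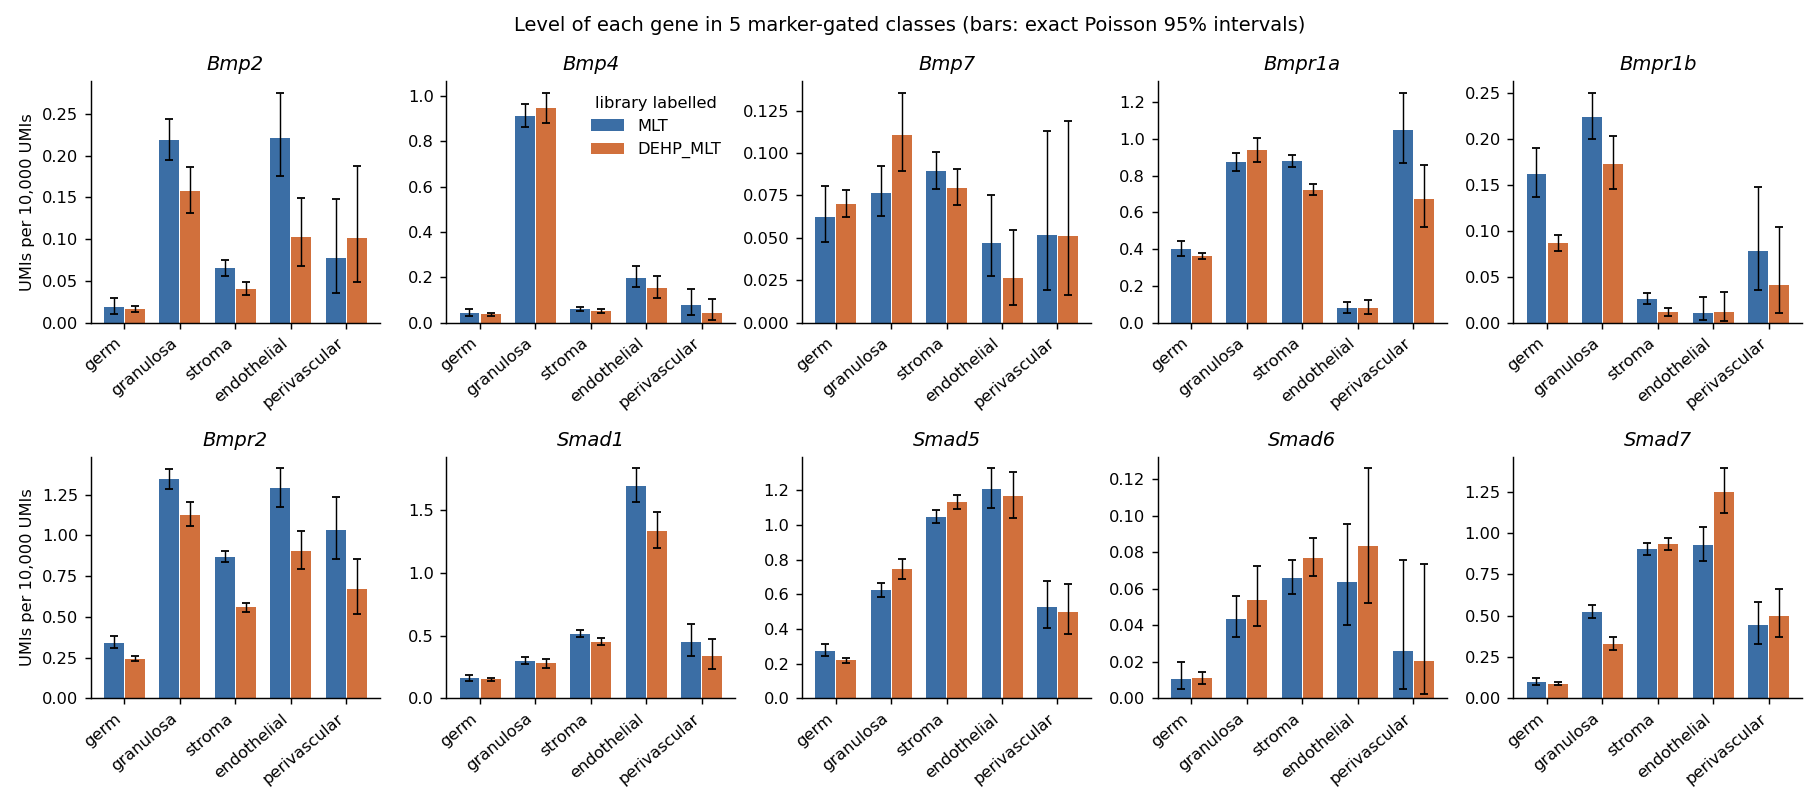
Level of each gene (UMIs per 10,000 UMIs, linear axis from 0 with its own scale per gene) in the 5 marker-gated classes of the library labelled MLT (blue) and the library labelled DEHP_MLT (orange), with exact Poisson 95% intervals. Bmp4 stands above its other classes in granulosa cells, Smad1 in endothelial cells, and Bmpr1a is near its lowest in endothelial cells in both libraries.

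Of the type I receptors, Bmpr1a (the receptor also called ALK3) was found in germ, granulosa, stroma and perivascular cells and was scarce in endothelial cells. Granulosa cells held 0.873 (0.824 to 0.923) labelled MLT and 0.939 (0.874 to 1.01) labelled DEHP_MLT. Stroma held 0.879 and 0.724, perivascular cells 1.05 and 0.672, and germ cells 0.403 and 0.362. Endothelial cells held only 0.0775 (0.0515 to 0.112) and 0.0795 (0.0492 to 0.121), with 28 and 21 UMIs. This was the lowest class in both libraries and its intervals were apart from those of germ cells, the next class. Thinned, a Bmpr1a UMI was in 0.658% and 0 of 97 endothelial cells, the latter allowing up to 3.09%. Erythroid cells gave 0 of 35, allowing up to 8.57%, and 0.870%. Unthinned, the shares were 13.8% and 14.4% of endothelial cells and 5.71% and 6.26% of erythroid cells, with median totals of 17175.5 and 20171 UMIs against 12143 and 9537. The erythroid levels of 0.0453 and 0.0654 had intervals that overlap the endothelial ones. Haemoglobin RNA takes up much of the erythroid totals, so these erythroid shares and levels may understate background. Between the libraries the perivascular ratio was -0.63 with intervals apart (121 and 66 UMIs), and it passed in 6 of 13 alternative settings. The perivascular cells also differed in markers that the gate did not use, with Acta2 at 39.2 and 19.9, Notch3 at 2.53 and 4.31, and the summed granulosa markers at 2.03 and 0.998. Among all kept cells of a library, of any class, 84 and 28 had a perivascular marker level within 25% of the cut, above or below it. The part of these differences in the ratio was not tested. The stroma ratio was -0.28 with intervals apart. In germ, granulosa and endothelial cells the ratios of -0.15, 0.10 and 0.03 had overlapping intervals.

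Among the 5 classes, Bmpr1b (ALK6), the other type I receptor, was highest in granulosa and germ cells. The surface gate, outside these classes, held 0.168 and 0.0996. Granulosa cells held 0.225 (0.200 to 0.251) labelled MLT and 0.173 (0.146 to 0.204) labelled DEHP_MLT. Germ cells held 0.162 (0.137 to 0.190) and 0.0869 (0.0784 to 0.0959). The germ cell level was 72.3% and 50.2% of the granulosa level, where the 4 granulosa markers stood at 4.80% to 12.1%. Stroma (0.0260 and 0.0114) and endothelial cells (0.0111 and 0.0114) had little, and perivascular cells gave 0.0779 and 0.0407 from 9 and 4 UMIs. The order granulosa, germ, perivascular, stroma, endothelial was the same in both libraries, with granulosa apart from germ cells in each.

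Between the libraries, Bmpr1b in germ cells gave a ratio of -0.83 from 151 and 388 UMIs, with intervals apart. Germ cells differed greatly in depth, with medians of 7894 UMIs per cell labelled MLT and 56520 labelled DEHP_MLT. Among all kept cells of a library, of any class, 209 and 80 had a germ marker level within 25% of the cut, above or below it. With the same floor of 6923 UMIs in both libraries, which left 139 and 725 germ cells, the ratio was -0.82. It was -0.89 without cells that carried MHC class II genes and -1.10 with equal weight per cell. The ratio passed in 12 of 13 alternative settings and missed with a pseudocount of 0.1 (-0.49). In granulosa cells Bmpr1b gave -0.36 with overlapping intervals, so lower values were also seen there without being apart.

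Bmpr2, the type II receptor that pairs with both type I receptors, was lower labelled DEHP_MLT in all 5 classes. Granulosa cells held 1.35 (1.29 to 1.41) labelled MLT and 1.13 (1.06 to 1.20) labelled DEHP_MLT, a ratio of -0.25. Endothelial cells held 1.29 and 0.904 (-0.51), and stroma 0.868 (0.835 to 0.902) and 0.558 (0.530 to 0.586; -0.63). In germ cells the levels were 0.343 and 0.244 (-0.48), and in perivascular cells 1.03 and 0.672 (-0.61). Intervals were apart in all but perivascular cells. The stroma difference alone passed 1.5-fold with intervals apart, from 2566 and 1571 UMIs, and it was -0.63 without cells that carried MHC class II genes. It passed in 10 of 13 alternative settings, and was -0.51 when centred on the class median. Stroma cells of the libraries fell mostly into different clusters, with 1402 stroma cells labelled DEHP_MLT and 110 labelled MLT in the largest cluster of the former. Within the 5 clusters that held at least 50 stroma cells of each library, a division looked at after the data were seen, the Bmpr2 ratio ran from -1.06 to -0.33, and intervals were apart in 3. Only the cluster at -1.06, with 223 and 122 stroma cells labelled MLT and DEHP_MLT, passed 1.5-fold with intervals apart. In the cluster of 110 and 1402 the ratio was -0.33 with overlapping intervals. Ratios below 0 were common among all genes compared, at 62.0% in germ cells, 66.7% in granulosa cells, 65.5% in stroma, 63.6% in endothelial cells and 59.1% in perivascular cells. Granulosa cells were highest and germ cells lowest in both libraries. Endothelial, perivascular and stroma levels were neighbours with overlapping intervals in each, and granulosa and endothelial intervals overlapped labelled MLT. Thinned, 15.6% (14.3% to 17.0%) of stroma cells labelled MLT and 9.66% (8.43% to 11.0%) labelled DEHP_MLT had a Bmpr2 UMI, against 56.5% and 48.1% unthinned. Erythroid cells, with median totals of 12143 and 9537 UMIs against 10514.5 and 11406 in stroma, gave 5.71% and 2.09%. Much of those erythroid totals is haemoglobin RNA, so the erythroid shares may understate background.

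**Figure D3:**
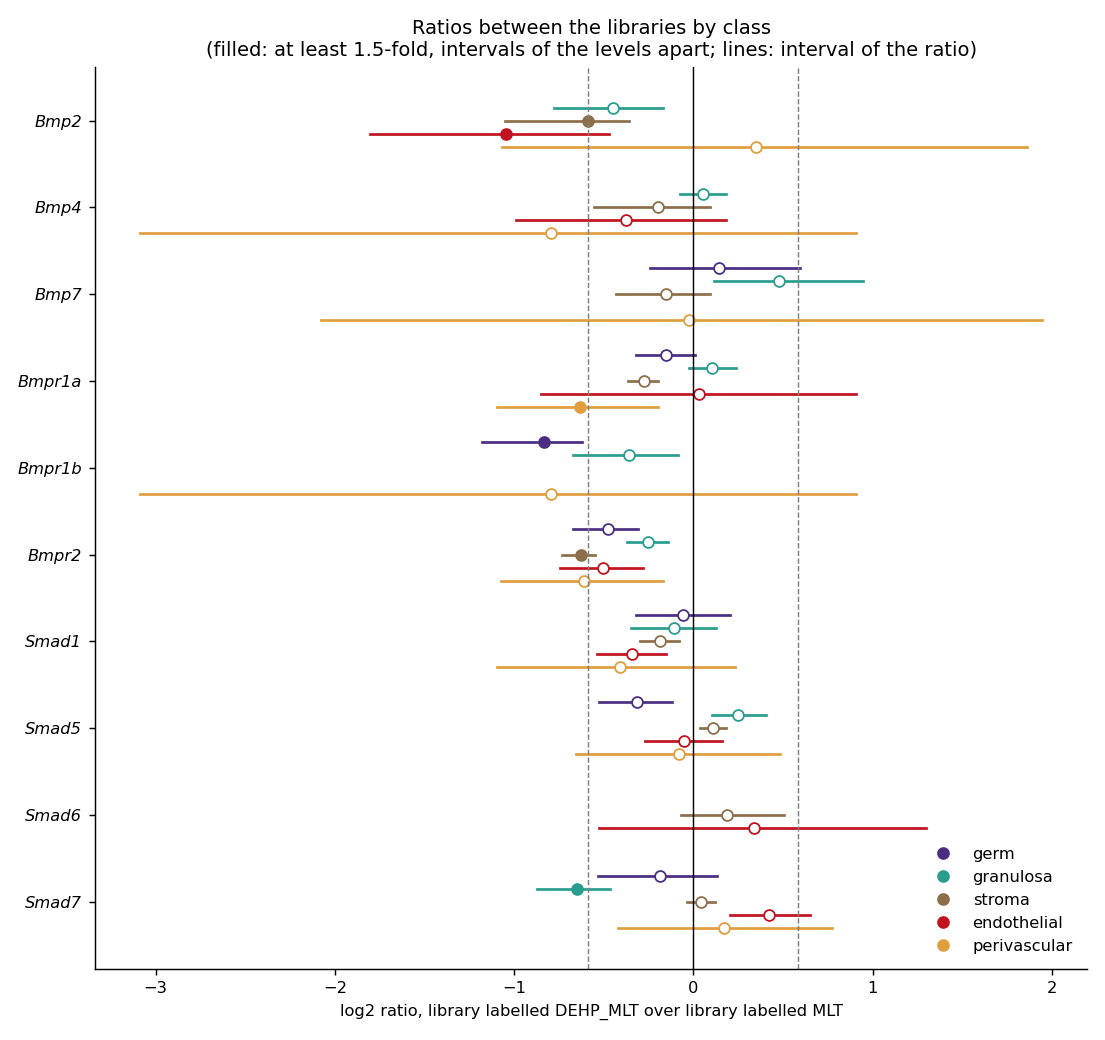
Log2 ratio (library labelled DEHP_MLT over library labelled MLT) of each gene in each class where it was compared; lines are exact 95% intervals of the ratio of raw counts, filled points are pairs at least 1.5-fold apart with intervals of the levels apart, and dashed lines mark 1.5-fold. All 5 points of Bmpr2 lie left of 0, and the 6 filled points are all on the left.

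Of the receptor-regulated Smads, Smad1 was highest in endothelial cells. They held 1.69 (1.56 to 1.83) labelled MLT and 1.33 (1.20 to 1.48) labelled DEHP_MLT. Stroma came next with 0.514 and 0.451, followed by perivascular cells with 0.450 and 0.336, granulosa cells with 0.301 and 0.279 and germ cells with 0.159 and 0.152. Endothelial cells were 3.29 and 2.95 times as high as stroma, with intervals apart, and the order of the 5 classes was the same in both libraries. The class with the most Smad1 was thus the one with the least Bmpr1a. Between the libraries all 5 ratios were below 0. Those in endothelial cells (-0.34) and stroma (-0.18) had intervals apart, and none reached 1.5-fold.

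Smad5 was also highest in endothelial cells, but stroma was close behind. Endothelial cells held 1.21 and 1.17, stroma 1.05 and 1.13, granulosa cells 0.625 and 0.745, perivascular cells 0.528 and 0.499, and germ cells 0.275 and 0.220. Endothelial and stroma intervals were apart labelled MLT and overlapped labelled DEHP_MLT. The direction between the libraries differed among classes. Smad5 was higher labelled DEHP_MLT in granulosa cells (0.25) and stroma (0.11) and lower in germ cells (-0.31), each with intervals apart and under 1.5-fold. In endothelial (-0.05) and perivascular cells (-0.08) the intervals overlapped.

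The inhibitory Smads differed from each other. Smad6 was sparse in every class, from 0.0107 and 0.0110 in germ cells to 0.0636 and 0.0833 in endothelial cells and 0.0660 and 0.0767 in stroma. Endothelial and stroma intervals overlapped in both libraries, and the ratios there were 0.34 and 0.19 with overlapping intervals. Granulosa cells held 0.0436 and 0.0541, and perivascular cells 0.0260 and 0.0204 from 3 and 2 UMIs.

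Smad7, which also blocks TGF-beta receptors, was high in endothelial cells and stroma and lower in granulosa and germ cells. Endothelial cells held 0.929 (0.833 to 1.03) labelled MLT and 1.25 (1.12 to 1.39) labelled DEHP_MLT, and stroma 0.903 and 0.930. Granulosa cells held 0.524 (0.487 to 0.564) and 0.331 (0.293 to 0.372), perivascular cells 0.442 and 0.499, and germ cells 0.102 and 0.0884. Granulosa and perivascular intervals overlapped in both libraries, and endothelial and stroma intervals only labelled MLT. The germ cell ratio of -0.19 had overlapping intervals, and was -0.87 with equal weight per cell, past the rule, -0.55 with mixed cells kept and 0.13 without cells that carried MHC class II genes. The granulosa ratio was -0.65 from 733 and 275 UMIs with intervals apart, while the endothelial ratio was 0.42 with intervals apart but under 1.5-fold. Without cells that carried MHC class II genes these were -0.65 and 0.40. The granulosa ratio passed in 8 of 13 alternative settings. With a granulosa gate that left out Inha, a gene of the TGF-beta superfamily, and Fst, which binds activin, it was -0.49. After thinning, a Smad7 UMI was in 9.14% (6.94% to 11.8%) of granulosa cells labelled MLT and 5% (2.76% to 8.25%) labelled DEHP_MLT, intervals that overlap. Unthinned, the shares were 52.3% and 52.5%. Thinned erythroid cells gave 5.71% and 1.74%, which may understate background because much of their UMIs is haemoglobin RNA.

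**Figure D4:**
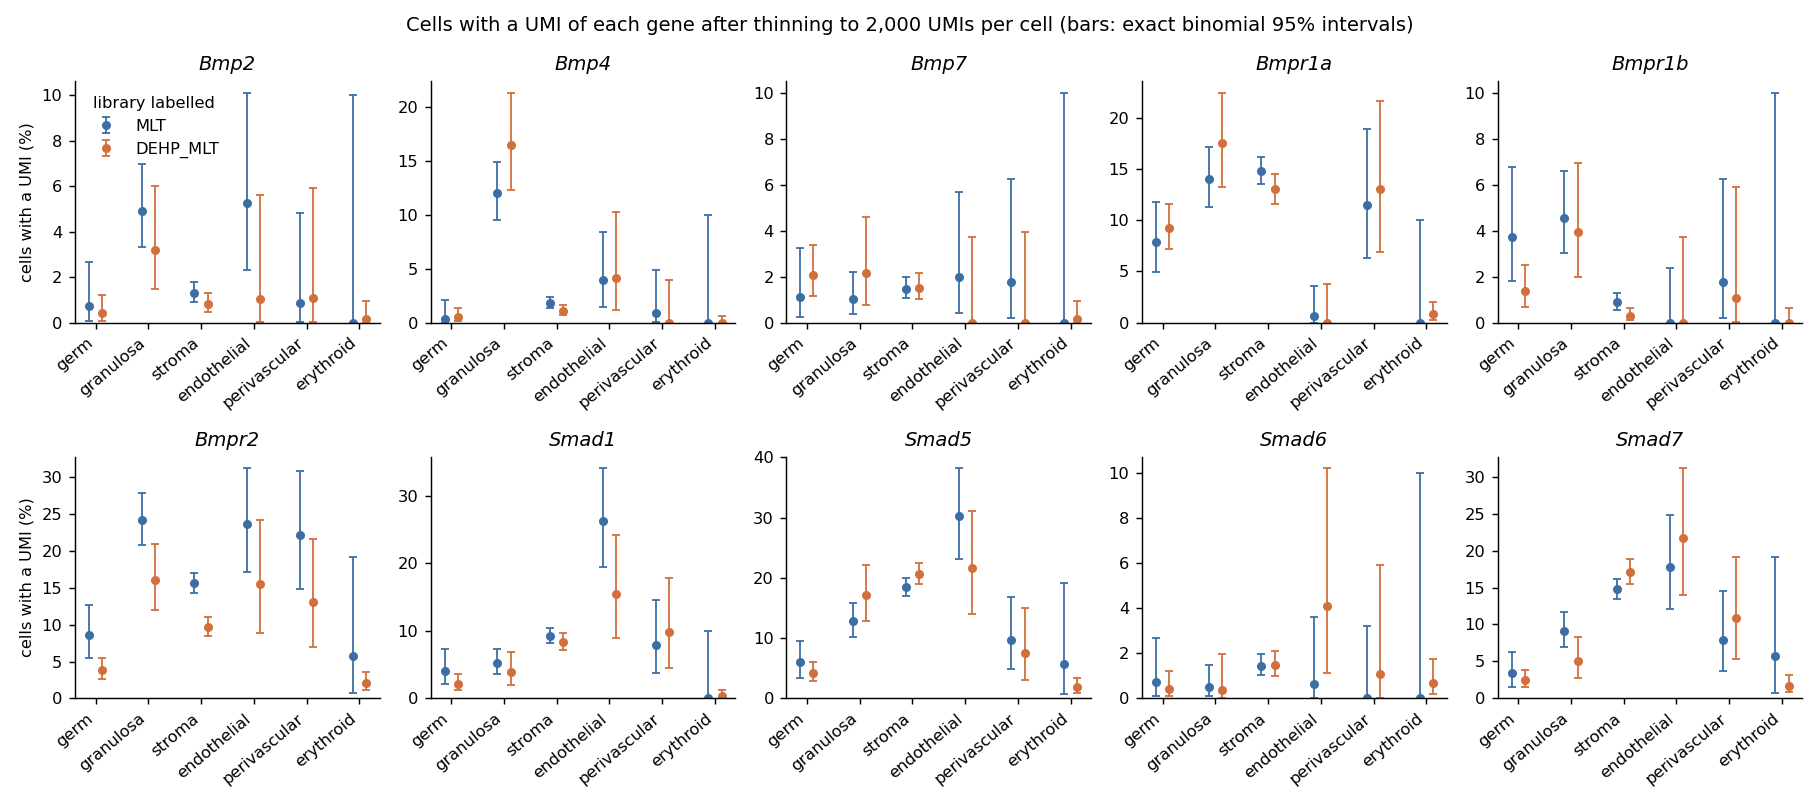
Percentage of cells with a UMI of each gene after thinning every cell to 2000 UMIs, in the 5 classes and in erythroid cells. The library labelled MLT is in blue and the library labelled DEHP_MLT in orange, with exact Clopper-Pearson 95% intervals. Erythroid shares may understate free RNA, because haemoglobin RNA takes up much of the UMIs kept in those cells. Bmp4 reaches 12.0% and 16.4% in granulosa cells, and Bmpr1a in endothelial cells is at 0.658% and 0.

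The class with the highest level was the same in both libraries for 6 of the 10 genes. Bmp4, Bmpr1b and Bmpr2 were highest in granulosa cells, and Smad1, Smad5 and Smad7 in endothelial cells. For Bmp2, Bmp7, Bmpr1a and Smad6 the top class differed between the libraries. Bmpr1a was top in perivascular cells labelled MLT and in granulosa cells labelled DEHP_MLT. Intervals of the top class and the next overlapped in at least 1 library for each of these 4 genes.

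Likeness of pattern was described over 16 points, the 8 gated classes of both libraries, among 13854 genes, as the Pearson correlation of log2(level + 0.01). The points of a library share its depth and free RNA, so these values are descriptions. Bmp4 was most like Me3 (0.96), Dhh (0.95) and Gm15222 (0.95). Bmpr1b was most like Slc44a3 (0.96), Cdkl2 (0.94) and Patj (0.94). For Bmpr2 the closest were Lrrc58 (0.98), Pggt1b (0.97) and Rnf103 (0.97). Smad1 was closest to Tcf4 (0.97), Pde8a (0.96) and Ccdc85b (0.96). For Smad7 they were Pxdn (0.96), Tbc1d16 (0.95) and Armcx4 (0.95). Bmp2 was nearest to Man2b1 (0.93), a lysosomal mannosidase, Ctsh (0.92), a lysosomal protease, and Basp1 (0.91). The genes most like Bmp7, Bmpr1a, Smad5 and Smad6 are not listed. Among the 10 genes themselves, Smad5 and Smad7 (0.91) and Smad1 and Smad7 (0.90) were most alike, and Bmp2 and Bmp7 (-0.22) least.

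Other genes of the pathway were read from a list of 53, of which 47 were in both tables. Of the targets compared, 3 of 5 were higher labelled DEHP_MLT in granulosa cells, 4 of 6 in stroma and 5 of 7 in endothelial cells, while 0 of 5 were in germ cells. In perivascular cells 2 of 5 targets were higher and 1 was lower. Of the listed genes compared, 2 of 22 were higher and 0 lower in germ cells, 3 of 28 higher and 1 lower in granulosa cells, and 5 of 30 higher and 1 lower in stroma. In endothelial cells 5 of 27 were higher and 1 lower, and in perivascular cells 3 of 30 higher and 4 lower. Of all genes compared, 1.83% were higher and 3.63% lower in germ cells, 0.881% and 8.22% in granulosa cells, and 0.984% and 7.9% in stroma. In endothelial cells these shares were 1.39% and 8.32%, and in perivascular cells 2.34% and 6.25%. Fst, a granulosa gate gene, was 1 of the 2 higher in germ cells and the 1 lower in stroma. Among the targets the median ratio was 0.80 in granulosa cells, 0.84 in stroma and 1.10 in endothelial cells, but 0.24 in germ cells and -0.25 in perivascular cells.

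Id1 was higher in 3 classes. In stroma it stood at 0.741 labelled MLT and 4.25 labelled DEHP_MLT (2.51), in endothelial cells at 3.44 and 9.32 (1.43), and in perivascular cells at 0.987 and 3.74 (1.91). Within the 5 stroma clusters that held at least 50 cells of each library, the Id1 ratio was 1.40 to 2.48 in 4 and -0.06 in 1, where the levels were 0.793 and 0.760. Id3 was higher in 4 classes, with 2.26 and 5.98 in stroma (1.40) and 1.38 and 2.41 in granulosa cells (0.80). Id2 was higher in granulosa cells (0.331 and 0.626, 0.90), stroma (0.88) and endothelial cells (0.974 and 2.15, 1.13). In perivascular cells Id2 went the other way, from 2.88 to 1.10 (-1.38). In stroma, the class with the highest ratio of Id1, Bmpr2 was lower (-0.63) and the intervals of Smad7 overlapped (0.04).

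In granulosa cells Msx1, a homeobox target, gave 0.198 and 0.352 (0.80), and in endothelial cells Hey1, a target shared with Notch signalling, gave 0.0526 and 0.197 (1.72). Nbl1, a secreted BMP antagonist, was higher in germ cells (0.0559 and 0.103, 0.77), stroma (1.08 and 1.63, 0.59) and perivascular cells (0.866 and 1.66, 0.93). Its germ cell level was far below that of stroma. The summed stroma check markers stood at 0.335 and 0.278 in germ cells, against 9.57 and 9.76 in stroma. The part of stray stroma RNA in the germ cell ratio of Nbl1 was not tested. Smad2, which carries TGF-beta and activin signals, was lower in endothelial cells with 0.473 and 0.235 (-0.98). Fst binds activin and is one of the granulosa gate genes, so its levels outside granulosa cells depend on the gate. It gave 0.128 and 0.215 in germ cells (0.71) and 0.116 and 0.0547 in stroma (-0.96), against 4.65 and 4.53 in granulosa cells. Neither ratio is read as a change of the pathway. Gdf9, an oocyte ligand, gave 0.149 and 0.0938 in granulosa cells (-0.61), against 1.77 and 1.32 in germ cells. Its levels in stroma (0.139 and 0.123), endothelial cells (0.0940 and 0.0870) and perivascular cells (0.139 and 0.102) were near the granulosa ones. The germ cell marker Sohlh1 also gave 0.333 and 0.273 in granulosa cells, against 5.27 and 5.15 in germ cells. The part of stray oocyte RNA in the granulosa ratio of Gdf9 was not tested.

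**Figure D5:**
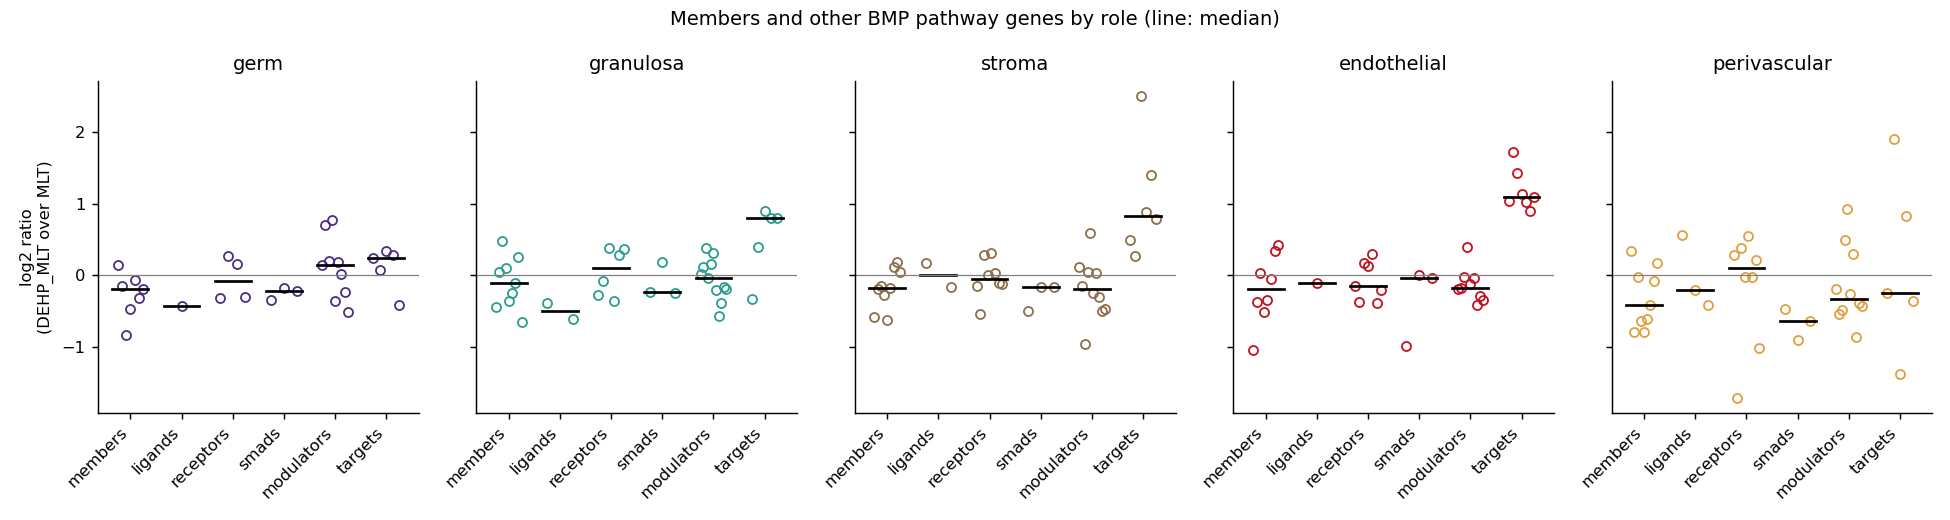
Log2 ratio (library labelled DEHP_MLT over library labelled MLT) of the 10 members and of the other listed pathway genes by role in each class, for genes that were compared and are reported here; each circle is a gene and each line the median. Targets lie above the other groups in granulosa cells, stroma and endothelial cells, with medians of 0.80, 0.84 and 1.10, and not in perivascular cells.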

How the data were processed

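Each of the 2 libraries had 1 deposited table of raw UMI counts per gene and barcode, whole numbers with no normalization. Per the submitters' processing notes, Cell Ranger (version not given in the sources used here), Seurat 4.2.0 and the mm9 build were named. How UMIs of overlapping genes were assigned is likewise not given there.

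The 21018 genes in both tables were used. A barcode was kept if it had 500 genes or more and no more than 20% of its UMIs from mitochondrial genes, which left 5199 of 5277 labelled MLT and 4819 of 4819 labelled DEHP_MLT. The lowest totals per barcode were 2031 and 6923 UMIs, so the tables start at different depths. A cell entered a class when its summed marker level reached 15% of the mean over the top 1% of cells for that class, with at least 2 marker UMIs. The markers were Dazl, Sycp3 and Figla (germ), Fst, Hsd3b1, Inha and Aard (granulosa), Col1a1, Col1a2, Col3a1 and Dcn (stroma), Cdh5 and Cldn5 (endothelial), and Rgs5 and Myh11 (perivascular). Immune and erythroid cells were gated in the same way, and so was the surface gate. Its markers were Upk1b, Upk3b, Krt19, Lgr5 and Gng13, which take in surface epithelium and epithelial pregranulosa cells. Cells whose second class reached over 50% of the first (442 and 259) were left out as mixed, no doublet caller was run, and 447 and 216 cells entered no class. The percentages of the gate were set after the data were seen, from the markers alone. Members and gene lists were chosen with earlier results of these data known.

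No test was possible with 1 library per group. Intervals are exact Poisson (levels), exact binomial (ratios of raw counts) and Clopper-Pearson (shares of cells). A limit for a count of 0 is 3 counts. For likeness, the 3 genes most like a member are named, for the members listed there. The pathway genes named are those apart in the same direction in at least 3 classes and the 2 furthest apart each way in each class. A gene that this rule names is not reported here, though the counts over the pathway list include it. The comparison step was checked on simulated counts. Python 3.11.15, numpy 2.4.6, scipy 1.17.1, pandas 2.3.3, scikit-learn 1.9.0, igraph 0.11.9 and matplotlib 3.10.9 were used.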

Additional observations from a re-analysis of the deposited data

Results flagged for a closer look

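Smad5 differed in direction among classes. Its ratio was -0.31 in germ cells and 0.25 in granulosa cells and 0.11 in stroma, with the intervals apart in each. Smad7 gave -0.65 in granulosa cells and 0.42 in endothelial cells. In both genes the difference between classes was not tested, since each class is 1 value per library.

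Outside the 5 classes, Bmp2 was highest of all 8 gates in immune cells, at 0.712 UMIs per 10,000 labelled MLT and 0.960 labelled DEHP_MLT, against 0.0453 and 0.00818 in erythroid cells. Within the immune gate the signal came from cells with more C1qa and C1qb than S100a8 UMIs, a division made after the data were seen. Those 47 and 18 cells held Bmp2 at 0.900 (0.674 to 1.18) and 2.46 (1.88 to 3.16). The 27 and 39 other immune cells had 0 UMIs, which allows up to 0.192 and 0.0774.

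Bmp7 was highest of all 8 gates in the surface gate, at 0.233 (0.205 to 0.264) and 0.271 (0.245 to 0.299). That gate takes in epithelial pregranulosa cells as well as surface epithelium, and the 2 were not separated. Its next class, stroma labelled MLT and granulosa cells labelled DEHP_MLT, held 0.0893 and 0.111.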

How the results depend on the processing

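No paired analysis was possible because each group has 1 library. Every alternative below was planned. Of 650 ratios recomputed (50 pairs under 13 alternatives), 626 moved by less than their counting interval, 24 moved by more, and 0 of the called ratios changed sign. The count of pairs lower labelled DEHP_MLT, 6 as reported, was 3 with Leiden clusters in place of gates, 3 with a granulosa gate without Fst and Inha, 2 with mitochondrial, ribosomal protein, haemoglobin, S100a8 and S100a9 UMIs out of the denominator, 2 with ratios centred on the class median and 1 with a pseudocount of 0.1. It was 8 with equal weight per cell, 7 with no filter on low levels, 5 with mixed cells kept, 4 without cells that carried MHC class II genes, and 6 under the other alternatives. The count of pairs higher, 0 as reported, was 1 with equal weight per cell (Smad7 in endothelial cells, 0.65) and 1 with that denominator (Bmp7 in granulosa cells, 0.64). The cause was not tested, apart from the pseudocount, which shrinks ratios of low levels by construction. The 6 ratios ran from -1.56 to -0.67 for Bmp2 in endothelial cells, -1.10 to -0.49 for Bmpr1b in germ cells, -0.67 to -0.51 for Bmpr2 in stroma, -0.82 to -0.49 for Smad7 in granulosa cells, -0.70 to -0.42 for Bmpr1a in perivascular cells and -0.60 to -0.24 for Bmp2 in stroma. The number of genes with the same highest class in both libraries, 6 as reported, ran from 4 to 8. Depth limits most the perivascular and endothelial classes and Smad6, where a class holds a few UMIs of a gene, and treatment cannot be told apart from library.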

Other observations

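Bmpr1a in immune cells stood at 0.107 (0.0464 to 0.212; 8 UMIs) labelled MLT and 0.378 (0.242 to 0.562; 24 UMIs) labelled DEHP_MLT, a ratio of 1.72. The immune cells of the 2 libraries differed in makeup, with 27 of 74 and 39 of 57 having at least as much S100a8 as C1qa and C1qb, and the part of this in the ratio was not tested. In the surface gate Bmpr1b gave 0.168 and 0.0996 (-0.70) with intervals apart, in the same direction as in germ cells. Bmpr2 gave 0.663 and 0.523 (-0.33) there with intervals apart. In a clustering of all cells, 1 unnamed cluster of 38 and 8 cells had Smad7 at 2.52 UMIs per 10,000 over both libraries, above the level of every gated class.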
